A study of Mus musculus with 24 samples.

Results

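Pancreatic stellate cells (PSC) of the inverse co-culture were compared directly with PSC of the standard co-culture after 72 h, which used 6 of the 24 libraries of the study, 3 for each model. PSC came from wild-type C57BL/6J mice aged 7 to 10 weeks, 4 to 10 pancreata were pooled for an isolation, and cells were used at passage 1 to 2. KPC cells are a single mouse pancreatic cancer cell line from 1 tumour-bearing animal. In standard co-culture, KPC cells covered the floor of the well below an insert whose membrane, with pores of 1 µm, carried the PSC, and in inverse co-culture KPC cells grew on the underside of that same membrane. The comparison asked whether PSC that grew close to cancer cells ended in a different state from PSC that grew farther away. The models also differed in other ways. PSC and KPC cells coexisted for up to 96 h in the inverse and up to 72 h in the standard model, and 120 ng and 450 ng of RNA entered the libraries. PSC were seeded in medium with 10% serum for the inverse and 16% for the standard model, and the base medium differed too. At time zero the standard model received fresh medium, of the base used for the inverse model. In the inverse model the seeding medium was not replaced. Distance, coexistence time, seeding medium, medium change and RNA input therefore cannot be told apart. The methods call the libraries of a group biological replicates, but neither they nor the labels tell whether each library had a PSC isolation of its own, so all p-values measure the spread between these libraries.

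Quiescent PSC store vitamin A in lipid droplets. When activated they lose these droplets, take on contractile fibres and secrete collagen, fibronectin and proteoglycans, and in pancreatic cancer they give rise to some of the cancer-associated fibroblasts (CAF). CAF next to cancer cells are often contractile and matrix-producing (myCAF), whereas CAF farther away more often secrete cytokines and chemokines (iCAF).

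The libraries of the whole study held between 15932737 and 24798761 counted fragments (median 18860269), and the 6 libraries compared here held between 17416083 and 20010801. Expression is given as FPKM, which divides a gene's fragments by the gene length in kilobases and scales it to the fragments counted in that library. Differences are inverse minus standard as log2(FPKM + 0.5), where the difference of genes with a low level comes out too small. The 20 stellate cell and fibroblast markers summed to between 28400 and 34600 FPKM in inverse and between 31100 and 38800 FPKM in standard co-culture, and COL1A1, VIM and PDGFRB were high in all 6 libraries, whereas GFAP was under 0.1 FPKM in each. Of the other cell types, the 22 macrophage and leukocyte markers varied most. They summed to between 71.2 and 109 FPKM in the inverse libraries, and to 108, 232 and 1030 FPKM as the lowest, median and highest standard library. The highest was standard replicate 2, and its same-numbered control was the highest control (1760 FPKM). Epithelial and ductal markers summed to between 20.4 and 24.5 FPKM in inverse and between 16.7 and 40.8 FPKM in standard co-culture. In these bulk libraries, fewer cells of a type and less RNA per cell cannot be told apart. Inverse replicate 3 stood apart on the first principal component (48.0, against values from -30.1 to 14.4 for the other libraries), which carried 42.7% of the variance and did not separate the models.

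No gene differed between the models at the limit chosen. Of 12741 genes tested with limma, 0 had an adjusted p under 0.05, 551 (4.32%) had an unadjusted p under 0.05, and voom on recovered fragments called 0 as well (521 with an unadjusted p under 0.05). Pairs of libraries correlated as closely between the models (Pearson r over genes 0.936 to 0.978, mean 0.963) as within the inverse (mean 0.963) and the standard model (mean 0.965). The median absolute log2 difference was 0.15, and 228 genes (1.79%) differed by more than 1. The data bound most differences: for 10253 genes (80.5%) the 95% confidence interval of the log2 difference lay between -1 and 1, and for 4672 (36.7%) between -0.5 and 0.5. The 3 inverse libraries lay above all 3 standard libraries in 707 genes (5.55%) and below them in 620 genes (4.87%), which is the background against which the counts of gene lists are read. The difference was above 0 in 52.2% of all genes, with a median of 0.01.

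**Figure D1:**
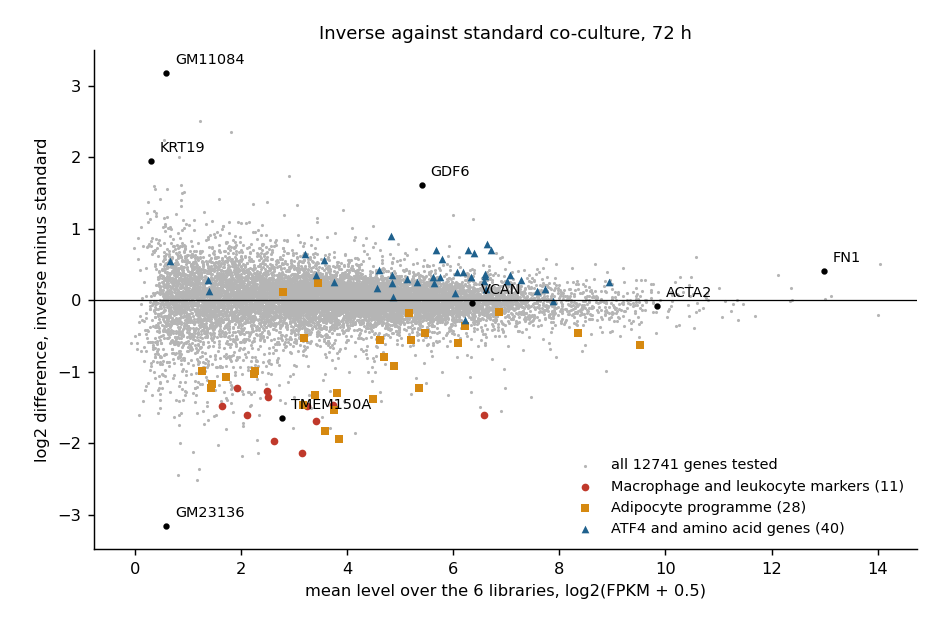
Log2 difference at 72 h, inverse minus standard co-culture (vertical axis) against the mean level over the 6 libraries in log2(FPKM + 0.5) (horizontal axis), 1 grey point for each of the 12741 genes tested. Macrophage markers (red circles) and most adipocyte genes (orange squares) lie below 0, most ATF4 genes (blue triangles) slightly above 0, VCAN and ACTA2 near 0, and none of the genes passed the adjusted p limit.

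The smallest adjusted p belonged to a pair of very short genes with few fragments, each of which passed the filter on low levels only through the group where it was high and so had to differ. GM11084 (chr2:72971548-72986716 in GRCm38, minus strand, counted over 69 bases) had 5, 4 and 7 fragments in inverse replicates 1 to 3 and 0 in each standard library. Against a floor of 3 fragments over the standard group its pooled level was at least 5.24-fold higher in inverse co-culture, with an adjusted p of 0.0767 from limma. GM23136, a small nucleolar RNA of 99 bases (chr9:64176661-64176759, plus strand), had 0 fragments in each inverse library and 9, 7 and 6 in the standard libraries, at least 7.46-fold lower in inverse co-culture (adjusted p = 0.0767 from limma). It was picked after its values were seen. It lies within the ribosomal protein gene RPL4 on the same strand, so that its few reads and those of RPL4, which differed by only -0.03, may not be cleanly separable. All other genes had an adjusted p of at least 0.90.

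Among protein-coding genes whose libraries did not overlap, the highest differences were those of GM11084, KRT19, GDF6, GNRH1, ARHGAP20, RIIAD1, WHRN and VAMP5, and all 8 missed the threshold (adjusted p of 0.90 from limma for the 7 other than GM11084). KRT19, a keratin of ductal epithelium and of many pancreatic cancer cells (chr11:100140810-100148665, minus strand), had 1.83, 1.17 and 3.11 FPKM in inverse and 0, 0.493 and 0 FPKM in standard co-culture, which rested on 36, 20 and 57 against 0, 9 and 0 fragments. All inverse libraries were higher, by 1.94 on average. KRT19 passed the filter only through the inverse libraries and so had to differ, and the size depends on the pseudocount, with 1.36 at a pseudocount of 1 and 3.46 at 0.1. At 24 h the levels were 1.64, 11.6 and 2.53 against 0.9751, 0.218 and 0.349 FPKM. There too KRT19 passed the filter only through the inverse libraries, which fixed the lack of overlap. In the 72 h controls the highest level was in a standard library (2.05 FPKM). KRT8, a partner keratin picked after its values were seen, had 0.919, 0.0880 and 3.14 FPKM in inverse and at most 0.174 FPKM in standard co-culture, and it was too low to be tested. EPCAM, a surface marker of epithelial cells, was at 0 in all 6 libraries. CDH1, the epithelial cadherin, was at most 0.153 FPKM. Of the 4 tested epithelial and ductal markers, 2 were above 0 and 2 below, with a median of 0.02 and a range of -0.62 to 1.94. Only 1 of them had a mean above 5 FPKM, and it was the one at -0.62. Whether RNA of KPC cells contributed to KRT19 was not tested.

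GDF6, a secreted ligand of the bone morphogenetic protein (BMP) family (chr4:9844372-9862345, plus strand), was measured at 73.0, 44.6 and 122 FPKM in inverse and 42.8, 22.3 and 13.97 FPKM in standard co-culture, a difference of 1.61 (0.55 to 2.67). The lowest inverse library was just above the highest standard library, and all but standard replicate 3 were above the controls, which ranged from 10.5 to 16.8 FPKM. BMP6, another BMP ligand that was picked after its values were seen, was measured at 30.6, 33.0 and 31.2 against 22.4, 11.99 and 12.8 FPKM (1.04, 0.51 to 1.57). Its inverse libraries were close together and the standard libraries were spread. ARHGAP20, a GTPase-activating protein, had 18.1, 15.2 and 43.3 against 10.1, 10.95 and 7.13 FPKM (1.26), and WHRN, a scaffold protein best known from hair cells of the ear, had 7.23, 7.65 and 18.6 against 4.69, 3.97 and 3.88 FPKM (1.19). In ARHGAP20 and WHRN inverse replicate 3 was the highest, as it was in GDF6. GNRH1 (1.40), which encodes gonadotropin-releasing hormone, RIIAD1 (1.24) and VAMP5 (1.16), a vesicle protein of muscle, were low, at most 4.73 FPKM in any of the 6 libraries, and GNRH1 and VAMP5 passed the filter only through the inverse libraries.

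Of the 20 tested genes of vitamin A and prostaglandin handling, 3 were higher in all inverse libraries (5.55% of all genes) and 1 was lower (4.87%). The list median was -0.09 (0.095 without inverse replicate 3), and 0 passed. CYP26B1 and RARB were picked after their values were seen. CYP26B1, an enzyme that breaks down retinoic acid (chr6:84571414-84593908, minus strand), had 22.4, 20.7 and 28.5 FPKM in inverse and 13.7, 12.9 and 11.1 FPKM in standard co-culture. The groups were clearly apart and the difference was 0.89 (0.52 to 1.25, unadjusted p = 0.000576, adjusted p = 0.90 from limma). RARB, a retinoic acid receptor whose gene is itself switched on by retinoic acid, had 10.7, 9.20 and 15.6 against 6.03, 7.36 and 5.93 FPKM (0.80, 0.31 to 1.29). At 24 h the differences were -0.40 for CYP26B1 and 0.23 for RARB, and in the controls of 72 h 0.28 and 0.20.

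**Figure D2:**
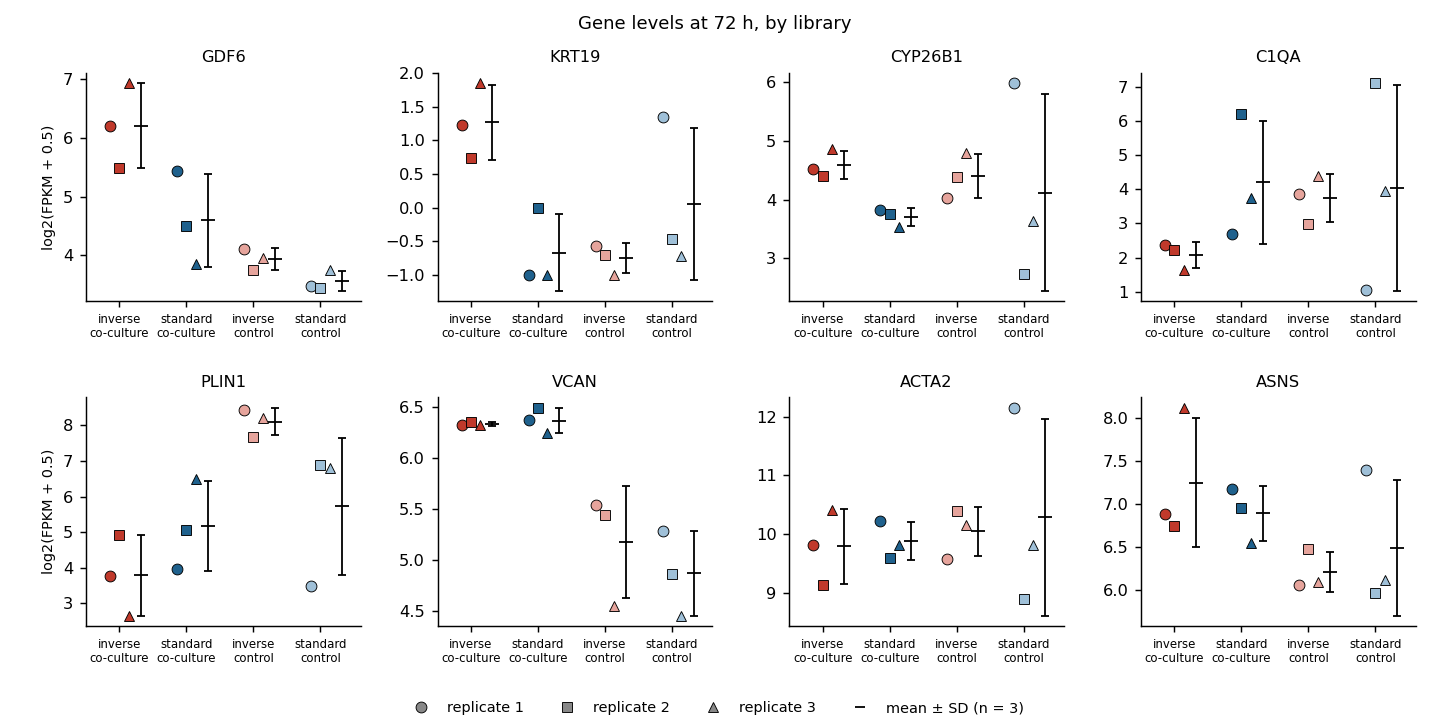
Level of 8 genes at 72 h in log2(FPKM + 0.5) (vertical axis) in each of the 3 libraries of inverse co-culture, standard co-culture, inverse control and standard control (horizontal axis), with the mean and SD of each group beside the points. GDF6, KRT19 and CYP26B1 lie higher in all inverse co-culture libraries than in the standard ones, C1QA lies lower, and PLIN1, VCAN, ACTA2 and ASNS overlap between the co-cultures.

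At the lower end, 7 of the 8 named genes are expressed in macrophages and other leukocytes, namely C1QA, C1QB, FCER1G, LILRB4A, STAB1, ADAM8 and CORO1A. C1QA, a subunit of the complement protein C1q made by macrophages (chr4:136895917-136898803, minus strand), had 4.61, 4.20 and 2.62 FPKM in inverse and 5.93, 72.5 and 12.9 FPKM in standard co-culture, a difference of -2.13 (-3.94 to -0.32). The groups did not overlap, but standard replicate 1 was close to the inverse libraries and replicate 2 stood far above. LYZ2, the lysozyme of myeloid cells and the most abundant macrophage marker here, had 59.9, 64.6 and 41.5 against 63.4, 542 and 132 FPKM (-1.60, -3.18 to -0.03), and its groups overlapped. All 11 tested markers had a difference below 0 (47.8% of all genes), with a median of -1.48. In 4 of them all inverse libraries were lower (4.87% of all genes), 4 had an unadjusted p under 0.05 (4.32% of all genes), and 0 passed. Without standard replicate 2 the median was -0.75, and without standard replicate 1 it was -2.29. In the 72 h controls the median was -0.04, with C1QA at 13.97, 7.38 and 20.4 FPKM in inverse and 1.59, 137 and 15 FPKM in standard controls, so the spread among standard libraries was present without KPC cells too.

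The 18 tested chemokines, the signals that attract leukocytes, all had a difference below 0 (47.8% of all genes), with a median of -1.04. Only CCL2 was lower in all inverse libraries (4.87% of all genes), and 0 passed. CCL2, which attracts monocytes and was picked after its values were seen, had 58.8, 55.4 and 46.1 FPKM in inverse and 59.7, 272 and 213 FPKM in standard co-culture (-1.50, -2.67 to -0.33). Its standard replicate 1 was at the level of the inverse libraries. CXCL12, which fibroblasts secrete, had 92.5, 139.7 and 25.4 against 87.4, 288 and 332 FPKM (-1.55, -3.17 to 0.07), and CCL7 differed by -0.96 (-1.84 to -0.07). IL6, a cytokine that marks iCAF and was picked after its values were seen, had 136, 102 and 82.6 against 46.8, 343 and 272 FPKM, so that standard libraries lay on both sides of the inverse ones. Without standard replicate 2, the library highest in macrophage markers, the chemokine median was -0.33, and without standard replicate 1 it was -1.89. The part of macrophage RNA in these differences was not tested. The iCAF list, which shares chemokines with this list, was below 0 in 18 of 20 tested genes (47.8% of all genes) with a median of -0.47. In 1 iCAF gene all inverse libraries were lower (4.87% of all genes). The myCAF list had a median of 0.00 over 17 genes with none lower or higher in all libraries. The iCAF median was -1.12 without standard replicate 1 and -0.28 without standard replicate 3, and that of myCAF lay between -0.09 and 0.13 without any 1 library. In both lists 0 genes passed.

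The other named gene at the lower end was TMEM150A, a membrane protein (chr6:72355447-72359762, plus strand). It had 3.87, 1.91 and 4.89 FPKM in inverse and 19.8, 12.1 and 6.35 FPKM in standard co-culture at 72 h, and all standard libraries were higher (-1.65, -2.67 to -0.64). At 24 h the order was the opposite, with 22.3, 19.6 and 12.1 FPKM in inverse and 3.94, 2.44 and 2.36 FPKM in standard co-culture (2.42). In the 72 h controls it was between 1.65 and 4.14 FPKM in all 6 libraries.

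Adipocyte genes were lower in inverse co-culture on average, without passing the test. Of 28 tested genes of the adipocyte programme, the fat storage genes that quiescent PSC partly share, 26 had a difference below 0 (47.8% of all genes), with a median of -0.95. In 1 gene all inverse libraries were lower (4.87% of all genes). ADIPOQ, the fat cell hormone adiponectin, had 6.66, 15.9 and 1.70 FPKM in inverse and 7.44, 23.3 and 61.1 FPKM in standard co-culture (-1.83, -3.87 to 0.21), and PLIN1, the coat protein of lipid droplets, had 13.2, 29.8 and 5.82 against 15.02, 33.2 and 89.6 FPKM (-1.39, -3.06 to 0.29). Both were picked after their values were seen, like FABP4 (-1.23) and PPARG below. In ADIPOQ and PLIN1 the outermost libraries were inverse replicate 3 at the lower and standard replicate 3 at the upper end, and the list median was -0.50 without the former and -0.46 without the latter. PPARG, the transcription factor that drives fat cell differentiation, was the gene without overlap, with 25.2, 26.6 and 10.4 against 28.7, 27.5 and 47.8 FPKM (-0.79, -1.66 to 0.07). LPL, a lipase and the most abundant gene of the list, had 647, 833 and 376 against 503, 1212 and 1241 FPKM.

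The controls of the models differed the other way in this programme, without passing the test. The list median of the difference between inverse and standard controls was 1.40, opposite in sign to that of the co-cultures, and 0 of 29 genes passed. In 13 genes all inverse controls were higher (11.1% of all genes). The mean log2(FPKM + 0.5) of the list was 6.426, 5.601 and 6.445 in inverse and 3.155, 5.679 and 5.679 in standard controls, so the groups overlapped. PLIN1 had 343, 204 and 298 FPKM in inverse controls and 10.8, 118 and 110.5 FPKM in standard controls. Standard control replicate 1 was the lowest of the controls in the mean of the list, and standard replicate 1 was also low among the co-cultures. The difference between the models in the effect of co-culture (co-culture minus control, inverse minus standard, over 12 libraries) had a median of -2.39 over the list, with 0 genes past the limit. Standard control replicate 1 enters this value too. The list medians of the controls and of this effect were not computed with a library left out. In sterol synthesis and uptake, 26 of 27 genes were below 0 (47.8% of all genes) with a median of -0.36 and none without overlap, for example CYP51 (-0.44). The median was -0.11 without inverse replicate 3 and -0.21 without standard replicate 3. Fatty acid and triglyceride synthesis had a median of -0.12 with 14 of 19 genes below 0 (47.8% of all genes), for example SCD1, a desaturase (-0.52), and ACLY, which supplies acetyl-CoA (-0.32). Fatty acid oxidation had a median of -0.11 with 20 of 23 genes below 0 (47.8% of all genes). Without standard replicate 3 these medians were -0.03 and -0.01, and that of synthesis was -0.05 without inverse replicate 3. In each of these lists 0 genes passed.

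**Figure D3:**
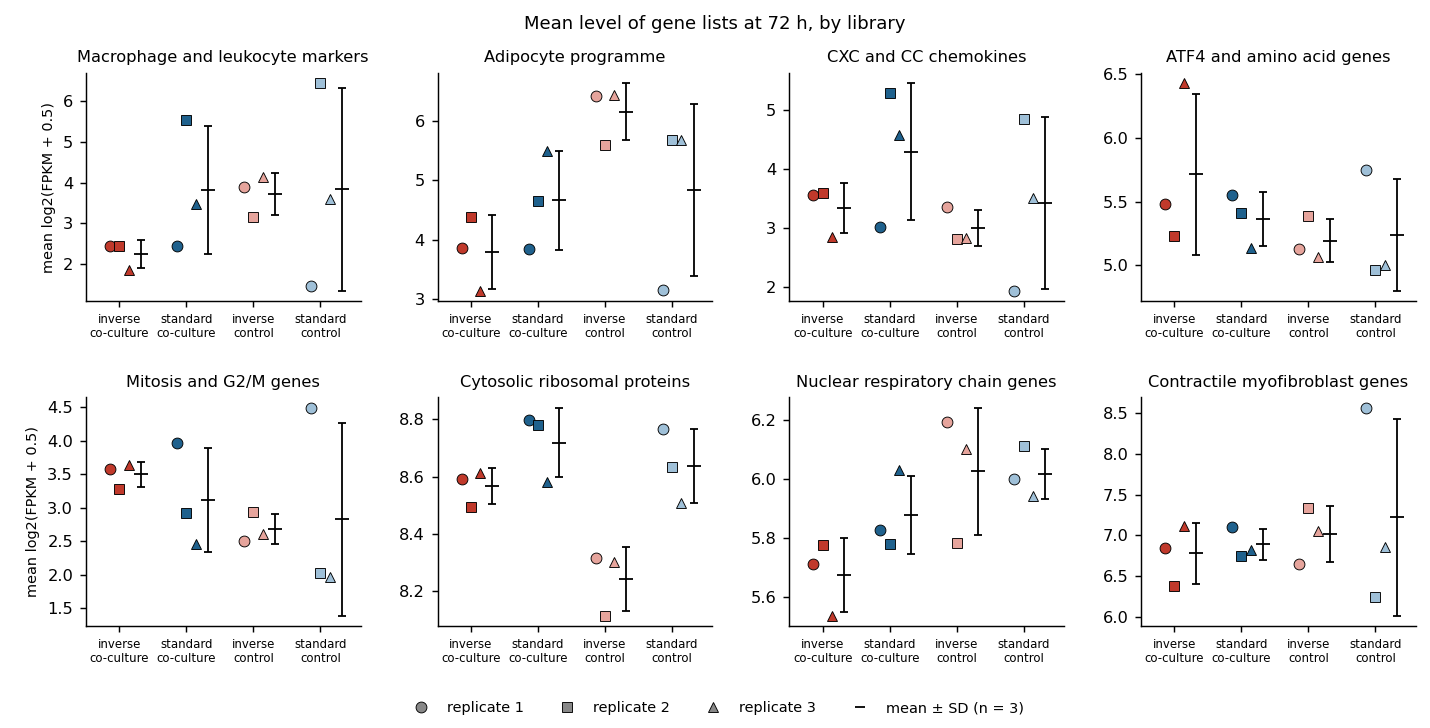
Mean level of 8 gene lists at 72 h, in log2(FPKM + 0.5) averaged over the members tested (vertical axis), in each of the 3 libraries of the 4 groups (horizontal axis), with the mean and SD of each group beside the points. Standard libraries are spread more widely than inverse ones in macrophage, chemokine and mitosis genes, and inverse replicate 3 is the highest library in ATF4 genes.

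No gene of the matrix passed the test, and the bound on the difference was close for some of them and wide for others. VCAN, the large chondroitin sulfate proteoglycan versican (chr13:89655312-89742509, minus strand), had 79.4, 81.1 and 79.4 FPKM in inverse and 82.0, 89.3 and 75.0 FPKM in standard co-culture. The standard libraries lay around the inverse ones, and the difference of -0.03 had a narrow interval (-0.28 to 0.21). In the controls it was between 21.5 and 46.1 FPKM, below all co-cultured libraries. CHST11, which sulfates chondroitin chains, had 18.1, 16.9 and 15.9 against 17.5, 14.4 and 16.4 FPKM (0.08, -0.22 to 0.37). SDC4, the cell surface proteoglycan syndecan 4, had 388, 298 and 319.8 against 290.0, 439 and 350.5 FPKM (-0.09, -0.51 to 0.33). FN1, fibronectin, had 9086, 8873 and 10100 against 9053, 7932 and 4849 FPKM, and only standard replicate 3 was much lower, so the interval was wider (0.41, -0.26 to 1.08). COL1A1, the main chain of type I collagen, differed by 0.06 (-0.49 to 0.60), COL3A1 by -0.21 (-0.96 to 0.55) and BGN, the small proteoglycan biglycan, by 0.16 (-0.27 to 0.60). In the lists, fibrillar collagens and crosslinking enzymes had a median of 0.09 with 20 of 31 genes above 0 (52.2% of all genes), basement membrane genes 0.06 with 13 of 19, and matrix glycoproteins and proteoglycans -0.07 with 19 of 43. Matrix proteases and inhibitors had a median of -0.15, and 3 of 27 were lower in all inverse libraries (4.87% of all genes). Among them was the collagenase MMP13 (-1.16, picked after its values were seen), which was at most 2.90 FPKM and passed the filter only through the standard libraries. Without standard replicate 3 the median of the collagen list was -0.01, that of glycoproteins 0.02 and that of proteases -0.03, and the basement membrane median was 0.03 without standard replicate 1. In all of these lists 0 genes passed.

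Of the contractile genes, which mark activated PSC and myCAF, 0 passed the test. ACTA2, which encodes αSMA (chr19:34241090-34255590, minus strand), had 899.5, 563 and 1362 FPKM in inverse and 1194, 771 and 899 FPKM in standard co-culture. The inverse libraries spread over the whole range of the standard ones and beyond, and the difference was -0.09 (-0.83 to 0.66). TPM1, a tropomyosin, differed by -0.16 (-0.56 to 0.24). Of 21 tested genes 15 were below 0 (47.8% of all genes), with a median of -0.16, and 2 were lower in all inverse libraries (4.87% of all genes). Of these, MYLK, the kinase of myosin light chain, had 61.6, 47.8 and 66.7 against 73.5, 90.8 and 88.3 FPKM (-0.53, -0.88 to -0.17, picked after its values were seen). Targets of YAP, a coactivator that responds to stretch and stiffness, were above 0 in 15 of 18 genes (52.2% of all genes) with a median of 0.18. In all inverse libraries 3 were higher (5.55% of all genes), including ANKRD1 (0.99) and the growth factor TGFB2 (0.83), also picked after their values were seen. Without inverse replicate 3 the YAP median was 0.02, with 10 of 18 genes above 0, and the contractile median was -0.36, while without inverse replicate 2 the latter was 0.07. In both lists 0 genes passed.

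Of the genes that the study names as changed by co-culture in both models, 44 were tested, and since they were chosen on these samples, their levels are no independent evidence. Their median was 0.06 (-0.08 without standard replicate 3), and 24 were above 0 (52.2% of all genes). In all inverse libraries 4 were higher (5.55% of all genes) and 3 lower (4.87%). An unadjusted p under 0.05 was found for 6 (4.32% of all genes), and 0 passed. The following were picked after their values were seen. The Notch ligand JAG1 had 10.0, 9.45 and 11.5 FPKM in inverse and 8.01, 7.57 and 8.02 FPKM in standard co-culture (0.37, 0.04 to 0.69). CDR2L, an antigen of cerebellar degeneration, had 70.7, 82.5 and 74.5 against 65.4, 59.6 and 52.2 FPKM (0.36), and the protocadherin PCDH10 differed by 0.69. TNFSF15, a cytokine of the tumour necrosis factor family, had 6.97, 2.71 and 29.9 against 5.23, 2.44 and 2.00 FPKM (1.37, -0.38 to 3.11), a value set by inverse replicate 3. HGF, the hepatocyte growth factor, differed by -0.41 (-0.86 to 0.03), and MET, its receptor, by -1.05 (-1.86 to -0.24) at levels of at most 3.06 FPKM.

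Genes of the amino acid response, which the transcription factor ATF4 switches on when amino acids are short, showed how much 1 library can set a list. Of 40 tested genes 38 were above 0 (52.2% of all genes) with a median of 0.32, but no gene was without overlap, 0 had an unadjusted p under 0.05 and 0 passed. Without inverse replicate 3 the median was 0.00. ATF4 forms composite sites with C/EBP proteins that read TGATGNAA, or TTNCATCA on the other strand, and these letters were found in the 250 bases upstream of 10 of 37 RefSeq promoters of the list (27.0%), against 3.45% of 32851 promoters of all genes. The following pair of promoters with such a match is printed 5′ to 3′ on the strand of the gene (RefSeq, GRCm38.p6), with the matches in capitals, because inverse replicate 3 was the highest of the 6 libraries for both genes. The CHAC1 promoter is at chr2:119350992-119351241, plus strand, and that of SLC7A11 at chr3:50443614-50443863, minus strand, with 2 matches. A match of letters is not evidence of binding. Since the list was written by hand from genes ascribed to ATF4, its larger share may follow from that choice.
CHAC1: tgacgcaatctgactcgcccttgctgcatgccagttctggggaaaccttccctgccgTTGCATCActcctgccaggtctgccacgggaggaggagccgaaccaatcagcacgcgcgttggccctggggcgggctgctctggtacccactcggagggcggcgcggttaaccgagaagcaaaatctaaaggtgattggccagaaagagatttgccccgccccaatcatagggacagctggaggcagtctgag
SLC7A11: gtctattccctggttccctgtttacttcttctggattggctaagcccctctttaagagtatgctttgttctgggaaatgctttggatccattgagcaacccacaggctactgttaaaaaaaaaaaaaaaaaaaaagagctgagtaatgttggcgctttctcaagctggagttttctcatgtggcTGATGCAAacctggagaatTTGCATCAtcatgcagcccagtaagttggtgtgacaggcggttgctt

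CHAC1, an enzyme that degrades glutathione, had 7.39, 5.44 and 32.7 FPKM in inverse and 9.09, 6.93 and 5.17 FPKM in standard co-culture (0.65, -0.73 to 2.03), and SLC7A11, a cystine transporter, had 1.70, 0.511 and 8.78 against 2.91, 1.93 and 1.39 FPKM (0.13, -1.57 to 1.84). ASNS, asparagine synthetase, had 118, 107 and 278 against 144, 124 and 93.2 FPKM (0.36, -0.47 to 1.19). In each of them inverse replicates 1 and 2 lay within or below the standard libraries and replicate 3 above them. CHAC1, SLC7A11 and ASNS were picked after their values were seen. ATF5, a related transcription factor and abundant member, had 484, 484 and 645 against 529, 448 and 376 FPKM (0.25, -0.16 to 0.67). Chaperones of the endoplasmic reticulum and other genes of the unfolded protein response had a median of -0.19 over 27 genes and 0 passed, and without inverse replicate 3 the median was 0.02, with 16 above 0.

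Cell cycle genes were spread among the standard libraries. Of 34 tested genes of mitosis, 33 were above 0 (52.2% of all genes) with a median of 0.38, none without overlap, and 0 passed. TOP2A, the topoisomerase of dividing cells, had 54.4, 43.7 and 60.8 FPKM in inverse and 64.2, 33.3 and 20.5 FPKM in standard co-culture (0.56, -0.29 to 1.42). FOXM1, a transcription factor of mitotic genes that was picked after its values were seen, had 23.9, 19.9 and 26.0 against 22.2, 11.03 and 8.12 FPKM (0.85, 0.08 to 1.61). In both genes standard replicate 1 was at the level of the inverse libraries and standard replicates 2 and 3 were lower. ANLN, a protein of the cleavage furrow, differed by 0.54. The median was 0.86 without standard replicate 1 and 0.01 without standard replicate 3. Genes of DNA replication were above 0 in 29 of 33 (52.2% of all genes) with a median of 0.32. Of them, 1 was higher in all inverse libraries (5.55% of all genes), and 0 passed. Their median was 0.59 without standard replicate 1, 0.20 without standard replicate 2 and 0.15 without standard replicate 3. The 6 tested replication-dependent histones had a median of 0.08, which was -0.06 without standard replicate 1, and 0 passed.

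The list of p53 targets and cell cycle inhibitors, where p53 is the transcription factor that responds to damaged DNA, was the one with the largest share of genes higher in all inverse libraries, 7 of 24 (against 5.55% of all genes). Of the 24, 8 had an unadjusted p under 0.05 (4.32% of all genes), although 0 passed and the median was only 0.19. CDKN1A, the cell cycle inhibitor p21, had 270.5, 244 and 382 FPKM in inverse and 225, 183 and 214 FPKM in standard co-culture (0.50, 0.08 to 0.93). ZMAT3, an RNA-binding target of p53, had 27.4, 28.1 and 31.3 against 23.7, 19.7 and 22.5 FPKM (0.39, 0.11 to 0.68), and its groups were both tight. GDF15, a secreted stress hormone, had 33.7, 29.1 and 66.4 against 27.9, 23.9 and 18.8 FPKM (0.78, 0.07 to 1.49). MDM2, which degrades p53 (0.30), the receptor EDA2R (0.55), the cell death gene BBC3 (0.58) and CDKN2A (0.44), a cell cycle inhibitor, were the other 4. Of the genes without overlap, CDKN1A was named by level, and the others were picked after their values were seen. PHLDA3, the other abundant member, differed by 0.10 (-0.27 to 0.47). The median was between 0.14 and 0.27 when any of the 6 libraries was left out, and it was 0.11 in the 72 h controls and 0.11 in the co-cultures of 24 h.

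Most genes of respiration and of ribosomes had a difference below 0, and 0 of them passed the test. Of 41 tested nuclear genes of the respiratory chain, 35 were below 0 (47.8% of all genes) and 11 were lower in all inverse libraries (against 4.87% of all genes). An unadjusted p under 0.05 was found for 6 (4.32% of all genes), and 0 passed. Their median was -0.18, and between -0.24 and -0.12 without any 1 library. COX5B, a subunit of cytochrome c oxidase, had 74.0, 70.0 and 75.8 FPKM in inverse and 91.9, 99.3 and 96.2 FPKM in standard co-culture (-0.38, -0.61 to -0.16), with both groups tight, and COX7B differed by -0.35 (-0.57 to -0.13). COX4I1, a further subunit, had 212, 236 and 206 against 258, 239.6 and 262 FPKM (-0.22, -0.47 to 0.04). Of 12 messages encoded in the mitochondrial genome, 9 were below 0 (47.8% of all genes) and 5 were lower in all inverse libraries (against 4.87% of all genes). Their median was -0.31 (-0.16 without standard replicate 3). MT-ND2, a subunit of complex I, had 509, 482 and 429 against 545, 648 and 855 FPKM (-0.51, -0.93 to -0.09), and MT-ND3, of the same complex, went the other way with 18.1, 27.9 and 26.6 against 8.34, 8.50 and 21.4 FPKM (1.01, 0.18 to 1.85). COX5B, COX7B, MT-ND2 and MT-ND3 were picked after their values were seen. MT-CO1, the most abundant message of the list, differed by -0.28 (-0.71 to 0.16). In the 72 h controls the medians were -0.01 for the nuclear and 0.18 for the mitochondrial genes.

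Of 50 cytosolic ribosomal proteins, 47 were below 0 (47.8% of all genes) and 13 were lower in all inverse libraries (4.87% of all genes). The median was -0.14, 2 had an unadjusted p under 0.05 (4.32% of all genes), and 0 passed. Quantile normalization moved the median to -0.07, with 14 genes above 0. RPL32, picked after its values were seen, had 353, 351 and 348 FPKM in inverse and 436, 438 and 389.8 FPKM in standard co-culture (-0.26, -0.51 to -0.01), and RPLP1, among the most abundant, had 1627, 1444 and 1458 against 1784, 1689 and 1502 FPKM (-0.13). Many of these genes share reads with processed pseudogenes, so single values are uncertain. In the 72 h controls, without KPC cells, 42 of the 50 were lower in all inverse libraries (against 3.14% of all genes) and the median was -0.37, and in the co-cultures of 24 h it was 0.17. RNA input differed between the models in each of these comparisons alike, and its part was not tested.

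Glycolysis genes and other targets of hypoxia were above 0 in 30 of 35 (52.2% of all genes) with a median of 0.20. In all inverse libraries 1 was higher (5.55% of all genes) and 1 lower (4.87%). ENO1, the enolase of glycolysis, had 1895, 1287 and 1639 FPKM in inverse and 1784, 1567 and 735 FPKM in standard co-culture (0.32, -0.47 to 1.10), and PKM, pyruvate kinase, differed by 0.21. Both were lowest in standard replicate 3, and without it the list median was -0.04. CAR9, a carbonic anhydrase induced by low oxygen, had 4.56, 4.30 and 3.94 against 2.35, 1.57 and 2.06 FPKM (0.95, 0.45 to 1.45), and NDUFA4L2, a mitochondrial protein induced by low oxygen, had 117, 51.5 and 144 against 66.0, 102 and 10.3 FPKM (1.20, -0.66 to 3.05). Both were picked after their values were seen. In the co-cultures of 24 h the median of the list was 0.51. In the IGF axis, 12 of 16 genes were above 0 (52.2% of all genes) with a median of 0.31 (0.17 without standard replicate 3, 0.47 without inverse replicate 2). IGF2R, the receptor that clears IGF2 (0.43), the adaptor of insulin and IGF receptors IRS1 (0.52) and the hormone STC1 (0.54), all picked after their values were seen, were higher in all inverse libraries (5.55% of all genes). IGFBP3, the most abundant binding protein, differed by 0.00 (-0.59 to 0.60). In the 72 h controls, without KPC cells, 12 of 16 genes of the IGF axis were above 0 too (62.9% of all genes), with a median of 0.44. Of these, 3 were higher in all inverse controls (11.1% of all genes). In both lists 0 genes passed.

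In the remaining lists of immune, stress and growth factor genes 0 genes passed either, and their medians lay between -0.41 (antigen presentation, 14 genes) and 0.04 (immediate early and ERK feedback genes, 31 genes). Interferon-stimulated genes had a median of -0.22 over 27 genes, NF-kB and IL1 response genes -0.28 over 23, complement and pentraxin genes -0.29 over 14, and NRF2 and metallothionein genes -0.16 over 28. The IL6 family and its STAT3 targets had a median of -0.11 over 22 genes. Single libraries moved these medians: without standard replicate 3 that of interferon-stimulated genes was 0.075, of NF-kB genes -0.13 and of BMP and WNT genes -0.02, and without standard replicate 1 that of complement genes was -0.75, of interferon-stimulated genes -0.41, of NF-kB genes -0.51 and of immediate early genes -0.12. Without standard replicate 2 the medians of complement, antigen presentation and IL6 family genes were -0.12, -0.18 and 0.03, and without inverse replicate 3 those of complement, antigen presentation, NRF2 and IL6 family genes were -0.12, -0.24, -0.01 and 0.02. In growth factor signalling the medians were -0.01 over 28 genes of TGF-beta and activin, -0.16 over 30 of BMP and WNT, and -0.04 over 27 of EGF, HGF and FGF. ID3, a target of BMP signalling and among the most abundant genes of its list, was lower in all inverse libraries (-0.51, -0.88 to -0.14), unlike the ligands GDF6 and BMP6 above.

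**Figure D4:**
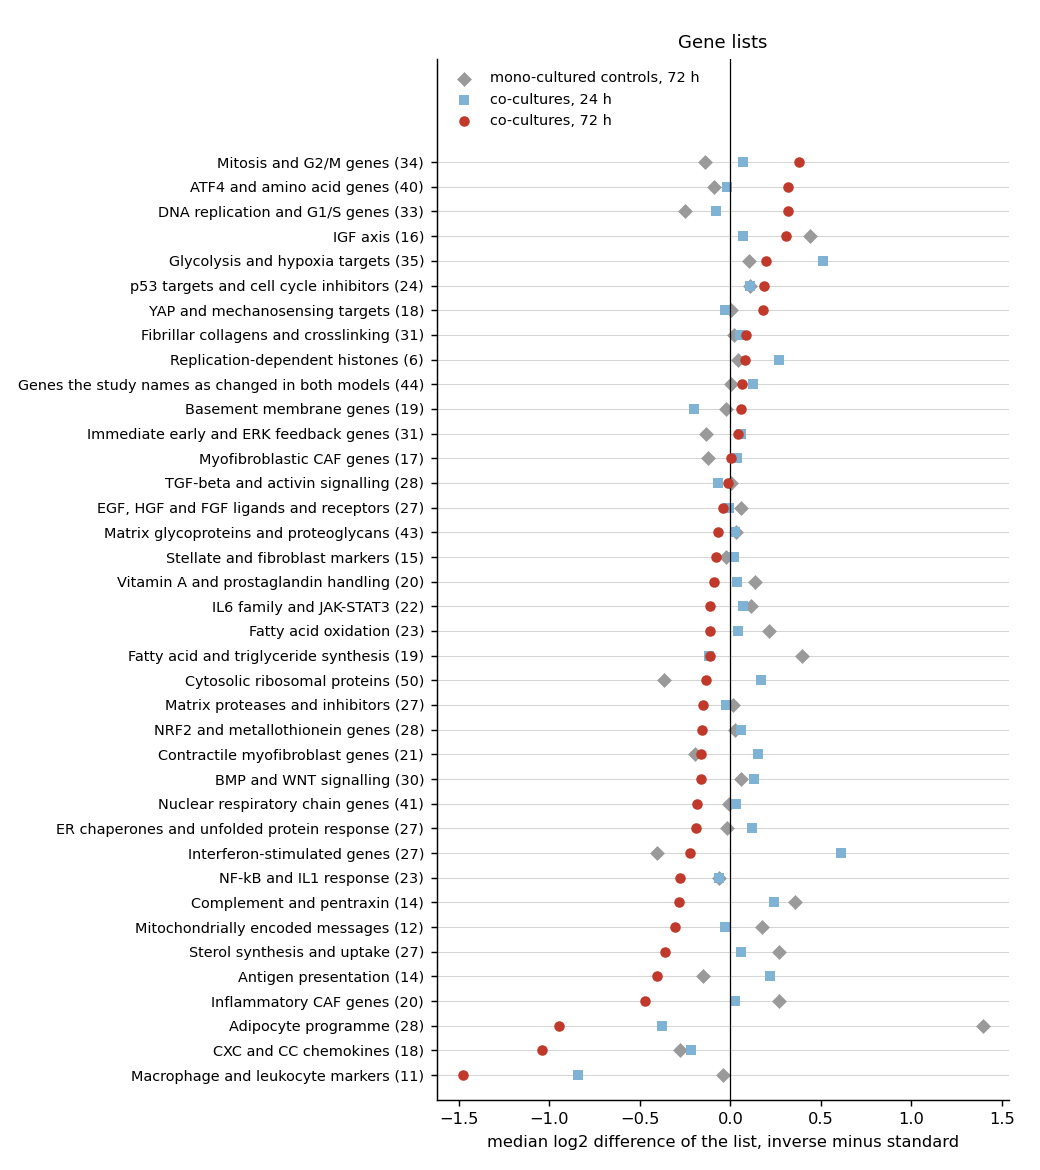
Median log2 difference, inverse minus standard (horizontal axis), of each gene list (vertical axis, with the number of genes tested in the 72 h co-cultures) in the co-cultures at 72 h (red circles), the co-cultures at 24 h (blue squares) and the mono-cultured controls at 72 h (grey diamonds). In the 72 h co-cultures the lowest medians are those of macrophage markers (-1.48), chemokines (-1.04) and adipocyte genes (-0.95), and in the controls the adipocyte median is 1.40.

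The same comparison in mono-cultured controls, in which no KPC cells were present, gave 0 of 13106 genes (limma, 810 or 6.18% with an unadjusted p under 0.05, and 0 with voom), although the 3 inverse controls lay above the 3 standard controls in 11.1% of genes and below in 3.14%, with a difference above 0 in 62.9%. At 24 h, the co-cultures gave 0 of 12772 genes (499 or 3.91% with an unadjusted p under 0.05, and 0 with voom), and the inverse libraries lay all above in 4.89% and all below in 5.14% of genes. The difference in the effect of co-culture between the models at 72 h gave 0 of 13775 genes (488 or 3.54% with an unadjusted p under 0.05, and 0 with voom), and it was below 0 in 59.0%. This difference was bounded less closely than the direct one. Its 95% confidence interval lay between -1 and 1 for 56.0% of genes and between -0.5 and 0.5 for 12.1%. Of the genes higher in all inverse co-culture libraries at 72 h, 147 were also higher in all inverse controls, which is 21.5% of the former and 10.7% of the latter among genes tested in both. Of those lower in all, 68 were shared with the controls (11.1% and 17%). With the co-cultures at 24 h, 52 genes were shared on the higher side (7.59% and 8.52%) and 33 on the lower side (5.44% and 5.12%). KRT19 was among the 52, but at both time points it passed the filter only through the inverse libraries.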

How the data were processed

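RNA of PSC was sequenced in 24 libraries, of which 6 entered the main comparison. Per the labels and methods, the authors aligned reads with HISAT2 2.0.5 to GRCm38.p6, counted fragments with featureCounts 1.5.0-p3 at default settings, which disregard the strand, so antisense genes cannot be separated, and deposited FPKM values of 53801 genes. Their counts, tested by them with DESeq2 1.20.0, are not used here. The annotation release is not given in the sources used here, and coordinates are from GENCODE M21, matched for 53706 genes. FPKM are shares of a library, so abundant genes move all others. Counted fragments were recovered from FPKM steps with a length implied for each gene, and 99.8% of 28892 genes above 0 gave whole fragments (tolerance 0.02). Since that length was chosen to give whole fragments, this share is no check of it, and with annotation lengths between 59.4% and 65.8% of the low values of a library were whole.

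Log2(FPKM + 0.5) was compared with limma 3.58.1 in R 4.3.3 (moderated test, intensity trend, two-sided, Benjamini-Hochberg adjustment, limit 0.05) over genes above an FPKM of 1 in at least 3 of the libraries compared. Named genes were the 8 highest and 8 lowest protein-coding differences without overlap, up to 2 abundant members of each list, cell type markers and VCAN, CHST11, SDC4, FN1 and ACTA2. Others are said to be picked later. The members and all 44 gene lists were chosen with earlier results of these data known. The fit was tested on simulated data. Alternatives were other pseudocounts, filters, scalings, models, limits and libraries left out. Tables and plots used Python 3.11.15 with pandas 2.3.3 and matplotlib 3.10.9.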

Additional observations from a re-analysis of the deposited data

Results flagged for a closer look

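TMEM150A went in opposite directions at the time points. Its log2 difference, inverse minus standard co-culture, was -1.652 at 72 h and 2.425 at 24 h, and the 3 inverse libraries lay all below the 3 standard libraries at 72 h and all above them at 24 h. The difference between the time points was not tested, and the adjusted p of each difference missed the limit.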

How the results depend on the processing

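The count of 0 genes between the co-cultures at 72 h rose to 2 with an adjusted p limit of 0.5, without the intensity trend and with library weights, and it was 0 under every other alternative run, including each library left out. With the replicate number as a block it was 0 (415 genes with an unadjusted p under 0.05). Same-numbered libraries of the models did not deviate together (r of -0.081, 0.049 and -0.257), which cannot tell whether they shared a PSC isolation. Between the controls the count of 0 became 1 with the limit of 0.5, 2 without the trend, 1 with weights, 3 with all 24 libraries and 1 with the 12 libraries of 72 h in the model, and from 0 to 3 with a library left out, with 3 without standard control replicate 1. For the difference in the effect of co-culture it became 1 with the limit of 0.5, 2 without a filter, 2 without the trend, 6 with weights and from 0 to 1 with a library left out (1 without inverse co-culture replicate 3), and it was 0 with the replicate number as a block over the models or within each model, where co-culture and control of the same number deviated together only in the standard model (r of 0.557, 0.441 and 0.421). At 24 h it became 1 without the trend and 4181 with weights, a fit whose weights did not converge. The cause was not tested in any of these. The block changed no other call.

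Of 91 named genes under 1606 alternatives, some of them added after seeing the data, 78 kept their direction. This count is a weak measure of stability, because some alternatives could not change a direction. Leaving out the trend, adding other libraries to the model or using the replicate block left the difference itself unchanged. Genes whose groups did not overlap must also keep their direction when a library is left out. GM11084 and GM23136 passed the limit without the trend and with library weights, and no other named gene passed it under any alternative. Quantile normalization turned VCAN (0.01), ACTA2 (0.00) and COL1A1 (-0.10), and median-ratio scaling turned IGFBP3 (-0.01). Library weights turned SLC7A11 (-0.13), ACTA2 (0.01) and TPM1 (0.00). With a library left out, differences ranged across 0 for VCAN (-0.10 to 0.03), SDC4 (-0.24 to 0.06), ACTA2 (-0.40 to 0.24), COL1A1 (-0.07 to 0.15), COL3A1 (-0.38 to 0.01), ASNS (-0.07 to 0.61), CHAC1 (-0.11 to 1.13), SLC7A11 (-0.75 to 0.85), PHLDA3 (-0.07 to 0.23), ENO1 (-0.08 to 0.56), PKM (-0.05 to 0.34) and IGFBP3 (-0.15 to 0.26). KRT19, GM11084, GM23136 and other genes that passed the filter through 1 group give no value when a library of that group is left out. Median-ratio scaling moved the median of all genes from 0.011 to -0.001.

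At these fragment totals, GM11084 and GM23136 rested on 16 and 22 fragments over a group.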

Other observations

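Some genes outside all lists had unadjusted p-values among the smallest, and they were picked for this, with an adjusted p of 0.9001 from limma for each. NOTCH4, a Notch receptor, differed by 0.84 (standard error 0.16). DPP4, a surface peptidase of some fibroblasts, differed by 0.61 (standard error 0.15). Lower in inverse co-culture were CEMIP, which degrades hyaluronan, by -1.07 (standard error 0.22), and GPNMB, a glycoprotein of macrophages and other cells, by -0.78 (standard error 0.18). In the 72 h controls the differences were -0.38 for NOTCH4, 0.39 for DPP4, -0.27 for CEMIP and 0.00 for GPNMB.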
